A study of Homo sapiens with 12 samples.

Results

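The regions described here are the accessible sites at the ends of long noncoding RNA (lncRNA) genes that stand clear of every protein-coding gene end. A peak list for chromosomes 1 to 22 held 105599 summits in intervals of at most 10000 bp, a summit being the base with the strongest signal in an interval or in a stretch of it. Members were the summits within 1000 bp of an end of a RefSeq lncRNA gene (or a gene of the ncRNA biotype) and over 1000 bp from every protein-coding gene end. There were 4309 members in 3730 intervals, 4.08% of those summits, and the whole list with all sequences held 188019 summits. The rule used position only and no measured height.

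The list came from ATAC-seq, in which a transposase cuts accessible DNA and leaves sequencing adapters there, applied to HT1080, an established human fibrosarcoma cell line. Cells migrated for 48 h in gels of rat tail collagen type I at 0.3 mg/mL (low), 1 mg/mL (medium) or 1.7 mg/mL (high), with 4 libraries at each concentration and 12 in all. All 3 groups were kept in 20 µM GM6001, an inhibitor of matrix metalloproteinases, so no group without the inhibitor was analysed, and the cells were released with collagenase, frozen and thawed before an Omni-ATAC preparation. The list is pooled and has no column for a library or a concentration, so the 3 concentrations could not be compared, there is no replicate error, and the depth of each library is unknown. For each summit the list gives the authors' enrichment, the fold of the signal over the local background. The pileup (number of overlapping fragments at the summit) and the background that give the deposited enrichment and p-value were computed from them. The depth behind each value is therefore its pileup, which ran from 35 to 20659 fragments over the members. No test over summits was made, because summits of 1 pooled list are not replicates. The 95% intervals below cover counting or the sampling of summits only, and amplified fragments are not independent molecules.

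Long noncoding RNA genes are transcribed mostly by RNA polymerase II, and their transcripts are often spliced and polyadenylated like messenger RNAs but encode no known protein. Some act as scaffolds of nuclear bodies or as partners of RNA-binding proteins, others carry small nucleolar RNAs (snoRNAs) or microRNAs (miRNAs) in their introns or exons, and for many the act of transcription or the DNA of the locus is the part with a known role. Their promoters range from CpG-rich promoters like those of housekeeping genes to CpG-poor promoters like those of enhancers, where factors such as AP-1 (the JUN and FOS family) bind in mesenchymal and tumour cells.

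The promoters below show both kinds, and they come from the genes on which the later sections turn. Each is the RefSeq window of 300 bases on GRCh38.p14, from 250 bases before the annotated start to 50 from the start on, written 5′ to 3′ on the gene's strand. Capitals mark every match to 10 motifs searched on both strands: the AP-1 motif spelled TGANTCA, the ETS motif spelled CCGGAAG, the SP/KLF motif spelled GGGCGG, the NFY motif spelled CCAAT, the NRF1 motif spelled GCGCATGC, the TEAD motif spelled GGAATG, the RUNX motif spelled TGTGGT, the TATA box spelled TATAAA, the cyclic AMP response element (CRE) spelled TGACGTCA and the YY1 motif spelled AAGATGGCG. Matches of different motifs overlapped in 33 of the 1827 promoters with a member within 1000 bp of the start, and an AP-1 match overlapped another motif in 8. A match is a run of letters, not evidence of binding. The 4 CpG-poor promoters shown first each hold AP-1 letters.
CYTOR, chr2:87455177-87455476, plus strand: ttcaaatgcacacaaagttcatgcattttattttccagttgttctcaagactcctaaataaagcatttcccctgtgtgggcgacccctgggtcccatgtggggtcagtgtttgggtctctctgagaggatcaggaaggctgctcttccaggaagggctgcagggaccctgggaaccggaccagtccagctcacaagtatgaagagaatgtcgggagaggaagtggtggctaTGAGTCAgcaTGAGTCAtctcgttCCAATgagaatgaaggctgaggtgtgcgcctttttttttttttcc
LINC00460, chr13:106376314-106376613, plus strand: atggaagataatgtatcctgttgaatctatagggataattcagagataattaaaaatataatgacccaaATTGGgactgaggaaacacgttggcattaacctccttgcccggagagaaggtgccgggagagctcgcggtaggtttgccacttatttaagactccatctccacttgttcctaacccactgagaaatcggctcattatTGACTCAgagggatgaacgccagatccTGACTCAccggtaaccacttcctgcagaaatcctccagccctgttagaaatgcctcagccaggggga
LUCAT1, chr5:91314353-91314652, minus strand: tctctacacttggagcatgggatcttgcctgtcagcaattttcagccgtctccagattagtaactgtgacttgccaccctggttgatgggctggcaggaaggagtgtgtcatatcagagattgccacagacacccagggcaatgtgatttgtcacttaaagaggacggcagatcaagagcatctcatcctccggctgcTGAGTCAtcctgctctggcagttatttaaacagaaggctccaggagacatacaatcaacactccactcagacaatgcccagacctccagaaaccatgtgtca
LINC01504, chr9:72305186-72305485, plus strand: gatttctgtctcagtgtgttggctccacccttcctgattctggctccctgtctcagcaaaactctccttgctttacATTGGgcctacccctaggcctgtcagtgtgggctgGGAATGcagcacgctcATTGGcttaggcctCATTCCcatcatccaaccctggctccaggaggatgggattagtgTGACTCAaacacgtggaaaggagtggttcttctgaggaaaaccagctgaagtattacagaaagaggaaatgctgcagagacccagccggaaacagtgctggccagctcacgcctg

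CYTOR, named as a cytoskeleton regulator RNA, had 2 AP-1 matches, at bases 232 to 238 and 242 to 248 of its window, and its member summit fell on base 238. In LINC00460, an RNA studied in carcinomas, the 2 AP-1 matches stood at bases 207 to 213 and 234 to 240 and the summit on base 256. LUCAT1, a stress-responsive RNA described in lung cancer, had 1 match at bases 199 to 205 and its summit on base 162. The match in LINC01504 stood at bases 186 to 192 and the summit on base 132. MIR4435-2HG, elsewhere on chromosome 2, shares an exact run of 241 bases with the CYTOR window and had near-equal values, 7.71 with a pileup of 419 against 7.40 and 410 at CYTOR. How reads were placed between these copies was not tested. An exact run of at least 100 bases shared with the window of another place was found in 71 of the 1827 promoters with a member within 1000 bp of the start (3.89%), in 101 of 6917 with no summit (1.46%) and in 461 of all 23904 (1.93%). The CpG ratio (CpG pairs observed over those expected from the C and G content) was 0.275 at CYTOR, 0.490 at LINC00460, 0.163 at LUCAT1 and 0.188 at LINC01504.

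The next 3 promoters are CpG-rich, with ratios of 0.798 at DANCR, 0.925 at MALAT1 and 1.07 at MIR17HG, and hold SP/KLF letters in place of AP-1 letters.
DANCR, chr4:52712144-52712443, plus strand: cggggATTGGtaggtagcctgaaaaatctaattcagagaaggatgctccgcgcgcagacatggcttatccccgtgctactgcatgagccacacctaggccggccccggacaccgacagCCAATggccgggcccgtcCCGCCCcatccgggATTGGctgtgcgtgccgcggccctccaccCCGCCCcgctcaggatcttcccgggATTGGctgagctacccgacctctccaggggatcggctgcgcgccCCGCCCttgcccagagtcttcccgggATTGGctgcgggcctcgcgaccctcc
MALAT1, chr11:65497488-65497787, plus strand: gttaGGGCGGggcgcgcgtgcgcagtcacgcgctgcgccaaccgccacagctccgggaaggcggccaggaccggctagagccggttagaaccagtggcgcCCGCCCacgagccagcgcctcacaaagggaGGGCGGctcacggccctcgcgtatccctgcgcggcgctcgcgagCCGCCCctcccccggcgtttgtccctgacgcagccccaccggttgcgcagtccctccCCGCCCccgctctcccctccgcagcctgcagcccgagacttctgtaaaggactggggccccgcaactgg
MIR17HG, chr13:91347437-91347736, plus strand: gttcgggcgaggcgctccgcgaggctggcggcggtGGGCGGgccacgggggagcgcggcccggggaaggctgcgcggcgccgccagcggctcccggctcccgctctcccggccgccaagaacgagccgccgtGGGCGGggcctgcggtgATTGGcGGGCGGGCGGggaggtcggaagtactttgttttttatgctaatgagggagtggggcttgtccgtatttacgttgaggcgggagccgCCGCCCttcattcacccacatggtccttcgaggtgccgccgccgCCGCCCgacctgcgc

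The last promoters are CpG-poor, with ratios of 0.407 at PCSK6-AS1 and 0 at PURPL, hold no AP-1 letters, and belong to members with a high enrichment. PCSK6-AS1 had the highest enrichment of all members, and its window is a perfect tandem repeat: every base equals the base 33 positions further on. The repeated unit, as it stands at the left edge of the window, is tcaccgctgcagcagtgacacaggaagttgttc, and none of the 10 motifs matched. PURPL, an RNA that p53 induces and that limits p53, had no CpG pair in its window and 1 RUNX match.
PCSK6-AS1, chr15:101334187-101334486, plus strand: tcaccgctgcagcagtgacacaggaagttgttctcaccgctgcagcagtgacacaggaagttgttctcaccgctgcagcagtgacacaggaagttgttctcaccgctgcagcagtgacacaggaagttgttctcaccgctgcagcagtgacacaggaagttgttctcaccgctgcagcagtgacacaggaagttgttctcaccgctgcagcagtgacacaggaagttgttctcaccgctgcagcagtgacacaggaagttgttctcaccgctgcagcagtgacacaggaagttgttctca
PURPL, chr5:27472042-27472341, plus strand: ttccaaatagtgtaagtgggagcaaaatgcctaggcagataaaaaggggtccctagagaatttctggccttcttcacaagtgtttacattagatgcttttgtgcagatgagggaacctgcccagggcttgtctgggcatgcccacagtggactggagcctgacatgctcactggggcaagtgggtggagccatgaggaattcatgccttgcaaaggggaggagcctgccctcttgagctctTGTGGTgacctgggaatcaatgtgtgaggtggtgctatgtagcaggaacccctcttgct

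A window in which at least 90% of bases match at a shift of 5 to 100 bases was found in 5 of the 1827 promoters with a member within 1000 bp of the start (0.274%, 95% exact binomial interval 0.0889 to 0.637), in 14 of all 10755 lncRNA promoters (0.130%) and in 17 of all 23904 promoters in the table (0.0711%). Among those 5, PCSK6-AS1 was the only one with an enrichment above 3.06, the value at LOC105369535. How reads were placed in such repeats was not tested.

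Several members lie at the starts of genes that carry miRNAs, and the mature sequences show which families these are. Capitals mark the seed, bases 2 to 8, which pairs with target messages. The let-7 miRNAs below share the seed GAGGUAG and lie in MIRLET7A1HG on chromosome 9 (let-7a, let-7f, let-7d) and MIRLET7IHG on chromosome 12 (let-7i).
let-7a-5p: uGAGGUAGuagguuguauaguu
let-7f-5p: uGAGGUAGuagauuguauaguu
let-7d-5p: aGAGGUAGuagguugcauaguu
let-7i-5p: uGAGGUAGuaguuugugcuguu

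MIR17HG on chromosome 13 carries the miR-17 to miR-92 cluster, whose transcription MYC drives. The 6 of its mature miRNAs given below fall into 4 seed groups: miR-17-5p and miR-20a-5p share AAAGUGC, miR-19a-3p and miR-19b-3p share GUGCAAA, and miR-18a-5p and miR-92a-3p each have a seed of their own.
miR-17-5p: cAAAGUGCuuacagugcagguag
miR-20a-5p: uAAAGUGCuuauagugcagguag
miR-18a-5p: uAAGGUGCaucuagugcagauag
miR-19a-3p: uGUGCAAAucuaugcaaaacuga
miR-19b-3p: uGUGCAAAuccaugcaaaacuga
miR-92a-3p: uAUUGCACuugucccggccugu

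The hosts MIR31HG and MIR210HG carry an miRNA linked to invasion and an miRNA induced by hypoxia. Their seeds, GGCAAGA and UGUGCGU, occur in none of the groups above.
miR-31-5p: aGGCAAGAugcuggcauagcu
miR-210-3p: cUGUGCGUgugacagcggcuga

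The members had a higher median signal than accessible sites away from gene ends and a lower one than sites at coding gene ends. Their median enrichment was 4.68 (95% interval 4.47 to 4.87, quartiles 2.39 and 8.68, range 1.23 to 20.6), against 3.89 over all 105599 summits. At summits near coding gene ends only (11742) the median was 8.53, and at the 2486 summits near both a lncRNA and a coding gene end it was 11.3. Summits inside coding genes had a median of 3.73, those near pseudogene ends only 2.97, and those elsewhere 3.40. The interval of the members overlapped that of no other class. In fragments the order was the same at the top: the median pileup was 148 (141 to 157) for members, 465 at coding gene ends, 732.5 at shared ends, 101 inside coding genes and 85 elsewhere.

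The members were also spread more widely than these medians show. An enrichment of 10 or more was reached by 848 members (19.7%), beside 16.2% of all summits, 43.7% at coding ends and 57.2% at shared ends. At the other extreme, 1413 members (32.8%) were under 3, beside 39.7% of all summits and 23.3% at coding ends. The local background was at its genome-wide floor of 20.3 fragments at 23.0% of members and at 34.4% of all summits. Intervals with a member were 642 bp long at the median, beside 595 bp for all summits. The only summit of its interval was a member in 3033 cases (70.4% of members), near the 69.4% of all summits.

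**Figure D1:**
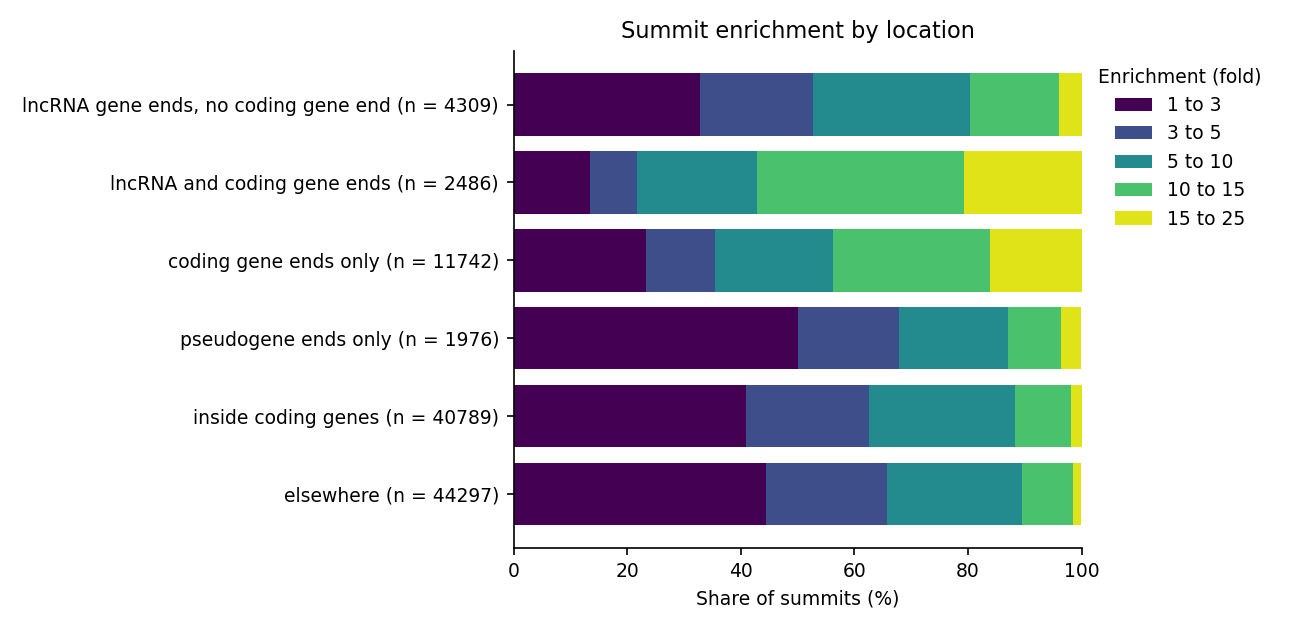
Share of summits (x axis, percent) in 5 ranges of enrichment (colours, fold over local background) for 6 locations (y axis, with the number of summits). The members, in the top bar, have 32.8% under 3 and 19.7% at 10 or more, between coding gene ends and sites elsewhere.

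Most members lay far from any coding gene end, though many lay inside a coding gene. The median distance to a coding gene end was 22555 bp, and 1322 members (30.7%) were over 50000 bp away. These distant members had a median enrichment of 5.01, and the 805 members 1000 to 5000 bp from a coding end had 4.11. The median pileups ran the other way, 133.5 for the distant members and 184 for the near ones. Coding gene bodies held 1471 members (34.1%), beside 46.8% of all summits. RefSeq also lists starts inside coding genes, and 313 members (7.26%) lay within 1000 bp of such an internal start. Their median enrichment was 7.38 and their median pileup 429, against 4.55 and 140 for the other 3996 members. Starts on chromosome 8 were not analysed, so its 178 members all count among the 3996. For those 313, lncRNA and coding starts cannot be told apart.

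Within the window the members crowded towards the gene end. The median distance was 359 bp (341 to 375, quartiles 127 and 654). The 100 bp next to the end held 899 summits with a median enrichment of 6.81, the next 100 bp held 619, and the last 100 bp before the limit held 306 with a median of 3.39. Beyond the limit the number fell off further, to 272 per 100 bp at 1000 to 2000 bp and to 138.8 per 100 bp at 9000 to 10000 bp. The share with an enrichment of 10 or more was 30.03% in the first 100 bp and 10.5% in the last. The signal of a gene end was thus clearest in the innermost 200 bp, and the outer part of the window resembled its surroundings.

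Strand was known for 11145 of the 17845 genes, and this separates starts from other ends. Of the 2851 members on 1 known side, 2040 lay at the start, a share of 71.6% (exact binomial interval 69.9 to 73.2). A further 105 members were near a start and an other end at the same time, and 1353 were near genes of unknown strand. Enrichment and pileup had medians of 5.21 and 183 fragments at starts, against 4.08 and 117 for members at the other end. Enrichment of 10 or more was found at 24.0% of start members and 13.7% of the others. Intervals were longer at starts, 718 bp against 547 bp at the median.

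The peak at starts was narrow and lay mostly upstream. From 200 to 100 bp before the start there were 304 summits, in the last 100 bp before it 398, and in the first 100 bp after it 221, with median enrichments of 7.89, 7.26 and 7.25. Bins 1000 to 2000 bp upstream held 42 to 64 summits. At the other end there was a dip instead: 33, 28 and 21 summits in the same 3 bins, against 58 to 76 in the bins 1000 to 2000 bp before that end, inside the gene. The window from 250 bp before to 50 bp after the start held 851 of 2145 start members (39.7%), at a median position of 77 bp upstream. Their median enrichment was 7.40 and their median pileup 304, beside 4.17 and 140 for start members outside the window.

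**Figure D2:**
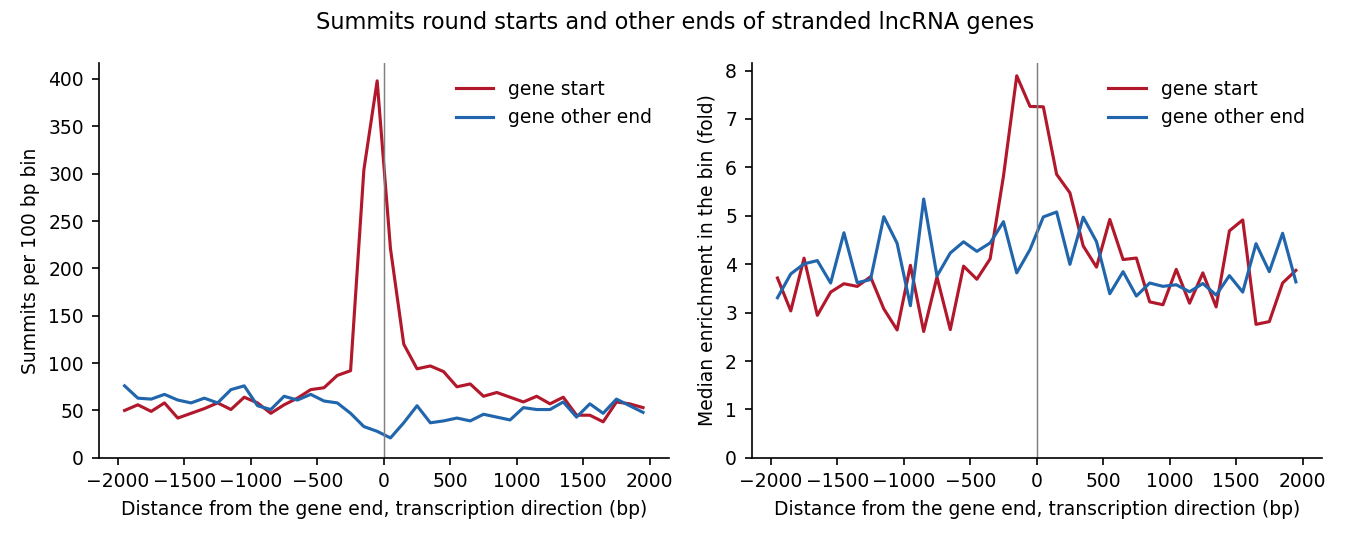
Number of summits per 100 bp bin (left y axis) and median enrichment of the bin (right panel, fold) against distance from the gene end in bp, in the direction of transcription, for starts (red) and other ends (blue) of lncRNA genes with a known strand, with summits near coding gene ends left out. The start curve reaches 398 summits in the bin just upstream, while the other end falls to 21 just beyond it.

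At the lncRNA limit of the rule, values on both sides were alike, and at the coding limit they were somewhat higher among the members. The 306 summits at 901 to 1000 bp from a lncRNA gene end had medians of 3.39 for enrichment and 93 for pileup, and the 309 just outside, at 1001 to 1100 bp, had 3.24 and 93. The 5 nearest inside, all at 1000 bp, belonged to LOC124904446, LOC107987170, BMP7-AS1, LOC105374116 and LOC105379375, with enrichments of 5.93, 11.8, 10.1, 1.69 and 6.14. The 5 nearest outside, at 1001 bp, belonged to LOC124904208, CASC23, RASSF3-DT, LOC105375241 and LOC105375402, with 2.02, 12.9, 5.23, 8.77 and 2.39. Towards coding ends, the 52 members at 1001 to 1100 bp had medians of 4.21 for enrichment and 235.5 for pileup. The 70 summits at 901 to 1000 bp, which the rule leaves out, had 3.71 and 184.5. The nearest members on that side were those of LINC02585 (12.8), LOC102723566 (1.80), LOC101928263 (6.94), LOC105378736 (2.34) and LOC107984763 (1.496), and the nearest summits left out were those of LOC124904086 (2.02), CPEB1-AS1 (1.69), LINC01134 (8.62), MGC16275 (2.62) and LPP-AS2 (11.4).

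Counted by gene, 3632 of 17845 lncRNA and ncRNA genes had a member, 20.4%. With summits shared with coding ends included, 5615 genes (31.5%) had an accessible end, beside 12686 of 19122 protein-coding genes (66.3%) and 1881 of 15727 pseudogenes (12%). Of the genes with a member, 2918 had 1, 579 had 2, 106 had 3, 26 had 4 and 3 had at least 5. Most members belonged to 1 gene, 4113 in all, while 189 were within reach of 2 genes and 7 of 3 or more.

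The kind of lncRNA, read from its symbol, went with large differences in these shares. Of 29 snoRNA host genes with an SNHG symbol, 14 had a member (48.3%, exact binomial interval 29.4 to 67.5) and 26 had any summit (89.7%), and the highest enrichment of each gene had a median of 13.9, against 5.55 for all genes with a member. Of 82 miRNA host genes with a MIR-HG symbol, 34 had a member (41.5%, 30.7 to 52.9). Among 2264 intergenic genes with a LINC symbol the share was 23.7%, among 1994 antisense genes 24.6%, and among 12092 uncharacterised genes with a LOC symbol 18.9%. Divergent transcripts (-DT), which by definition start beside another gene, had the widest gap: 86.6% of 580 had a summit but only 12.2% had a member. An end of 90% of them lay within 1000 bp of a coding end, so their shared summits were left out by the rule.

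**Figure D3:**
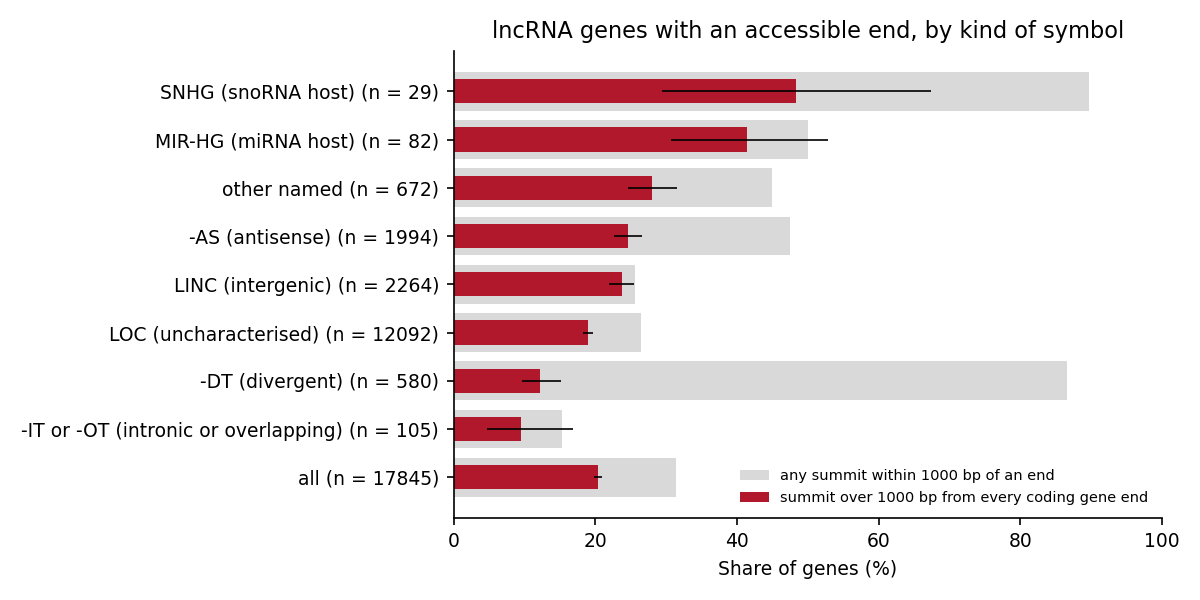
Share of lncRNA genes (x axis, percent) with a member (red, with 95% exact binomial interval) and with any summit within 1000 bp of an end (grey), by kind of symbol (y axis, number of genes). SNHG genes had a member at 48.3% and -DT genes at 12.2%, although 86.6% of -DT genes had some summit.

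The base composition of the promoters separated starts with a member from those without a summit. The CpG ratio had a median of 0.4998 in the 1078 lncRNA promoters with a member within 250 bp of the start, 0.424 in the 1827 with one within 1000 bp, and 0.214 in the 6917 with no summit and no coding end within 1000 bp. Coding promoters, here and below, were taken with or without a summit, and their median was 0.771. The GC content had medians of 58.0%, 56.3%, 45.3% and 62.7% in the same order. A CpG ratio over 0.6 was found in 42.4%, 35.9%, 8.33% and 66.9%. Among promoters whose member had an enrichment of 10 or more, 53.5% were over 0.6.

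Motif content differed with it. SP/KLF letters were in 36.8% of the 1827 promoters with a member within 1000 bp (interval 34.6 to 39.0), 11.6% of those with no summit and 44.0% of all 23904 promoters in the table. ETS letters, bound by a factor family active at housekeeping promoters, were in 8.32%, 2.54% and 10.7%. AP-1 letters went the other way relative to coding genes: 17.7% with a member (16.0 to 19.5), 10.3% with no summit, 7.81% of all promoters and 5.73% of coding promoters. TATA letters were in 10.2%, 19.3% and 12.3%, so they were scarcer where a member was present. The remaining shares, given as member, no summit and all promoters, were 32.7%, 36.7% and 35.8% for NFY and 17.5%, 19.2% and 14.1% for TEAD. They were 16.8%, 17.9% and 13.2% for RUNX. The rarest motifs were NRF1 with 2.96%, 0.665% and 3.26%, CRE with 1.92%, 0.463% and 2.03%, and YY1 with 0.438%, 0.159% and 1.88%.

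Splitting the 1078 promoters with a member within 250 bp at a CpG ratio of 0.6 set 2 promoter types apart. In the 621 CpG-poor promoters, AP-1 letters stood in 234 (37.7%, 33.9 to 41.6), beside 11.0% of 6341 CpG-poor lncRNA promoters with no summit and 10.9% of 4350 CpG-poor coding promoters. The coding promoters were taken with or without a summit, so accessible lncRNA and accessible coding promoters were not compared. RUNX letters were in 25.0%, beside 18.7% and 16.6%, and TATA letters in 11.9%, beside 20.3% and 20.0%. In the 457 CpG-rich promoters AP-1 letters were in 5.47% and SP/KLF letters in 73.3%, beside 52.6% of CpG-rich lncRNA promoters with no summit and 77.0% of CpG-rich coding promoters. The CpG-rich members were the stronger ones, with a median enrichment of 9.85 and 49.5% at 10 or more, against 5.82 and 22.5% in the CpG-poor ones.

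**Figure D4:**
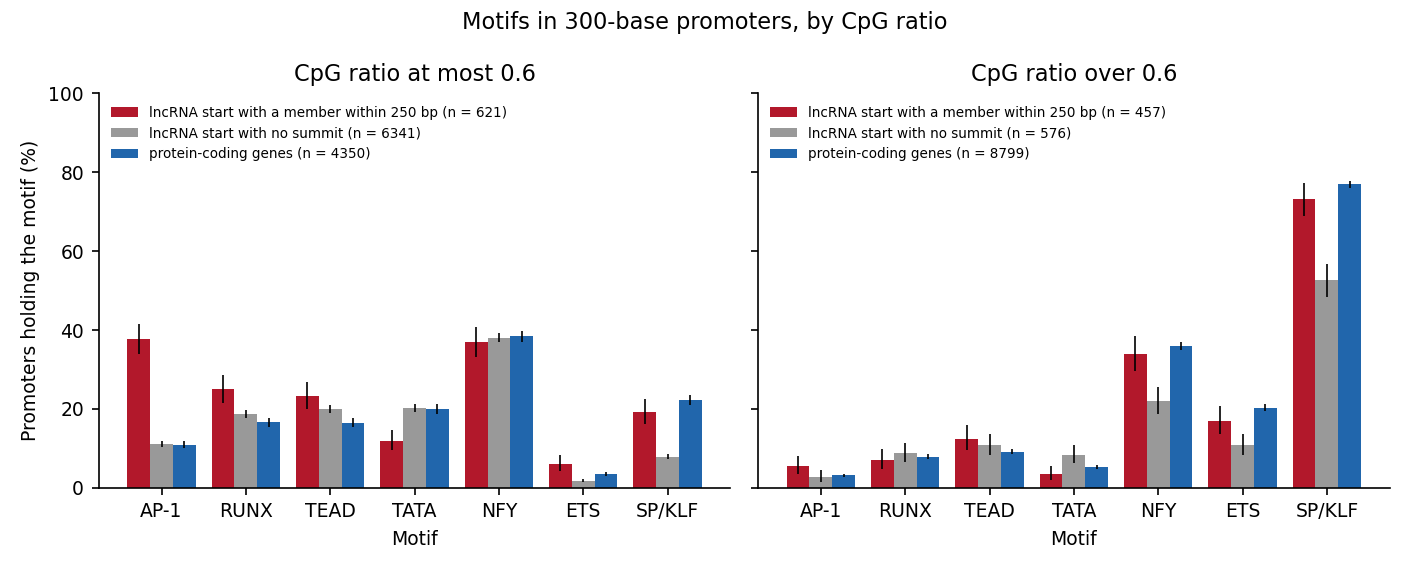
Share of 300-base promoters (y axis, percent, with 95% exact binomial interval) that hold each motif (x axis), for CpG-poor (left) and CpG-rich (right) promoters of lncRNA genes with a member within 250 bp of the start (red), with no summit (grey) and of coding genes (blue). AP-1 letters stand in 37.7% of the CpG-poor member promoters, beside 11.0% and 10.9%. The coding genes were taken with or without a summit.

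Motif letters and summits could be compared in position in 849 promoters whose window held the summit. In the 218 with AP-1 letters the nearest match was a median of 36 bp from the summit, and in 96 (44.0%) it was within 30 bp. SP/KLF matches were a median of 38 bp away with 41.1% within 30 bp. TEAD matches were 89.5 bp away with 21.3% within 30 bp, and TATA matches 105.5 bp away with 10.3%. Promoters with several matches have a nearer one by number alone, and this was not corrected for. The 31 promoters with CRE letters, the site of CREB and ATF factors, had a median enrichment of 12.5, and the 1047 without had 7.08. Of those 31, 22 were CpG-rich, the class with the higher median. Promoters with NRF1 letters had 10.4 against 7.14 without, and those with ETS letters 10.0 against 7.04. The medians were 9.11 against 6.38 for SP/KLF and 8.97 against 6.39 for NFY. RUNX (6.66 against 7.37) went the other way, while AP-1 (7.49 against 7.08) and TEAD (7.11 against 7.22) went with little difference. Promoters with TATA letters had 8.12 against 7.16, and the 5 with YY1 letters 10.7 against 7.20. CpG-rich promoters were 40 of the 46 with NRF1 letters and 78 of the 116 with ETS letters. They were 335 of the 454 with SP/KLF letters and 155 of the 384 with NFY letters.

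Of 8 nuclear-body and scaffold RNAs in the table, 7 had a member (87.5%), beside 20.4% of all lncRNA genes. DANCR, known for keeping progenitor cells undifferentiated, was the highest, with 18.2-fold enrichment and 2250 fragments, 20 bp upstream of its start. KCNQ1OT1, the antisense RNA of the imprinted KCNQ1 domain, had 13.3 and 898 in chr11:2699365-2700831 within the gene body of KCNQ1, and NORAD, which binds PUMILIO proteins, had 12.5 and 611. MALAT1, the RNA of nuclear speckles, had 11.5 and 2382 over a background of 206 fragments. CYTOR had 7.40 and 410, at a summit shared with NCAL1. No summit lay within 1000 bp of an end of MIAT.

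NEAT1, the RNA that builds paraspeckles, had a low enrichment with a high pileup. Its 4 member summits lay in chr11:65422086-65423376 and chr11:65445255-65447143, 1 interval at each end of the gene, with enrichments of 4.44, 3.98, 2.10 and 2.14. The pileups were 2096 and 1898 at 1 end and 712 and 731 at the other, above the upper quartile of 388 over all members. Local backgrounds at NEAT1 were 339 to 476 fragments, and since the enrichment divides by the background, the 2 measures rank this gene very differently. PVT1, the neighbour of MYC, had 5.88 and 179 at 1 end and a second summit of 1.93 in the same interval.

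The snoRNA hosts had high enrichments, many of them at ends shared with coding genes. These genes make ribosome-related snoRNAs from their introns, and many share the promoter type of ribosomal protein genes. Of 32 such genes, 15 had a member, 14 had only a summit shared with a coding end and 3 had none (SNHG12, SNHG14 and SNHG27). With 46.9% the share with a member lay above the 20.4% of all lncRNA genes and below that of the nuclear-body list. Over the highest summit of each gene the medians were 14.0 for enrichment and 976 for pileup. SNHG30 had 16.4, SNHG21 16.0, EPB41L4A-AS1 15.5, SNHG25 15.4 and SNHG16 15.0. The largest pileups were 3304 at SNHG29 and 3136 at SNHG5, with enrichments of 14.0 and 13.8. Among the member summits SNHG3 was the exception at 1.48, at its other end over a background of 280 fragments. SNHG3 also had a summit that the rule left out, because it lay near a coding end. Among the shared ones, GAS5 had 12.3 beside ZBTB37, ZFAS1 13.8 beside ZNFX1 and SNHG1 14.3 beside SLC3A2.

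The miRNA hosts ranged from the top of the list to near its floor. With 34 of 82 carrying a member, the median of the highest enrichment was 5.58, close to the 5.55 of all genes with a member. MIR4458HG had 18.1 and a pileup of 2866, at a summit shared with LINC02226. MIR210HG had 15.5 and 1234, and MIR762HG 14.2 and 982. The let-7 hosts differed among themselves: MIRLET7A1HG had 11.7 and 3483, MIRLET7IHG 10.3 and 1299, and MIRLET7BHG, which carries let-7a and let-7b, 2.91 and 353. The MIRLET7IHG summit was shared with LINC01465 and the MIRLET7BHG summit with LOC112268288. MIR31HG had 11.4 and 839, MIR17HG 11.0 and 1404, and MIR155HG, the host of an miRNA best known from immune cells, 10.7 and 342. MIR34AHG, whose miR-34a is a p53 target, had 1.76 and 44. MIR200BHG, host of epithelial miR-200 members, had 1.51 and 52, at its other end. High backgrounds were also found at MIR22HG and MIR23AHG. MIR22HG had 2.69 and 725 over a background of 269 fragments, besides 2 summits shared with a coding end. MIR23AHG had 3.19 and 1334 over 417 at its other end, and 1.51 and 695 over 460 at its start.

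Placed by coordinates rather than by symbol, 160 miRNA hairpins lay inside 105 stranded lncRNA genes on the same strand. Of these hosts, 26 (24.8%) had a member within 1000 bp of their start, beside 1827 of all 10755 stranded lncRNA genes with a promoter at their start (17.0%). The median start enrichment was 7.11 for these hosts and 6.18 for all. The 26 hosts carry 39 of these hairpins. MIR155HG, MIR4458HG and MIR22HG, whose start members are given above, held none of the 1461 autosomal hairpins searched. They are therefore not among the 105 hosts, and the counts cover the searched hairpins only.

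Genes of the p53 and damage response had a member in 5 of 9 cases (55.6%, beside 20.4% of all lncRNA genes), with 2 more at shared ends. Of these 5, MIR34AHG and LNCTAM34A share 1 summit of low enrichment. PURPL, described above for its CpG-free promoter, had 16.6 and a pileup of 709 and lay 433670 bp from the nearest coding end. DINOL, an RNA that p53 induces beside CDKN1A, had its summit in chr6:36678371-36679429, with 5.64 and 1646 over a background of 291 fragments, 2156 bp from a CDKN1A end. NORAD and the MIR34AHG summit are given above. TP53TG1 had its summit of 18.5 at a shared end with CROT. PANDAR and CDKN2B-AS1 had no summit within 1000 bp of an end, and whether their DNA is intact in this line was not tested.

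Genes studied in mesenchymal cells, epithelial-mesenchymal transition and invasion had a member in 5 of 19 cases (26.3%), near the 20.4% of all lncRNA genes. LINC-ROR had 8.35 with a pileup of 248, LINC00460 8.28 and 295, LUCAT1 8.26 and 810, and LINC00973 3.71 and 78. MIR31HG is the fifth. ZEB1-AS1, ZEB2-AS1, CARMN, MIR100HG and DNM3OS were among the 13 with no summit within 1000 bp of an end.

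Developmental and imprinted RNAs had a member in 3 of 15 cases (20.0%, near the 20.4% of all lncRNA genes), and these had a median of 2.81. MEG9 of the imprinted DLK1 domain had 15.9 and 1194, at its other end, while MEG3 and MEG8 of the same domain had none. HOTAIR, transcribed from the HOXC cluster, had 1.78 and 37, 828 bp from its end, and PART1 2.81 and 59. HOTTIP, HOTAIRM1, FENDRR and LINC-PINT had summits at shared ends, and H19, IPW, AIRN, HOXA-AS2, HOXA-AS3 and HOXD-AS2 had none. For comparison, 18 lncRNAs named for other lineages (neural, liver, prostate, pluripotent, heart and melanocytic) were read, with 1 of them listed under 2 names: 2 of the 18 entries (11.1%) had a member and 16 had no summit within 1000 bp of an end, beside 20.4% of all lncRNA genes with a member and 31.5% with any summit. The exceptions were SAMMSON, a melanoma RNA near MITF, with 13.7 and 600, and LINC00520 with 7.04 and 165. These lists were written with earlier results of these data known, so their counts are descriptions.

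**Figure D5:**
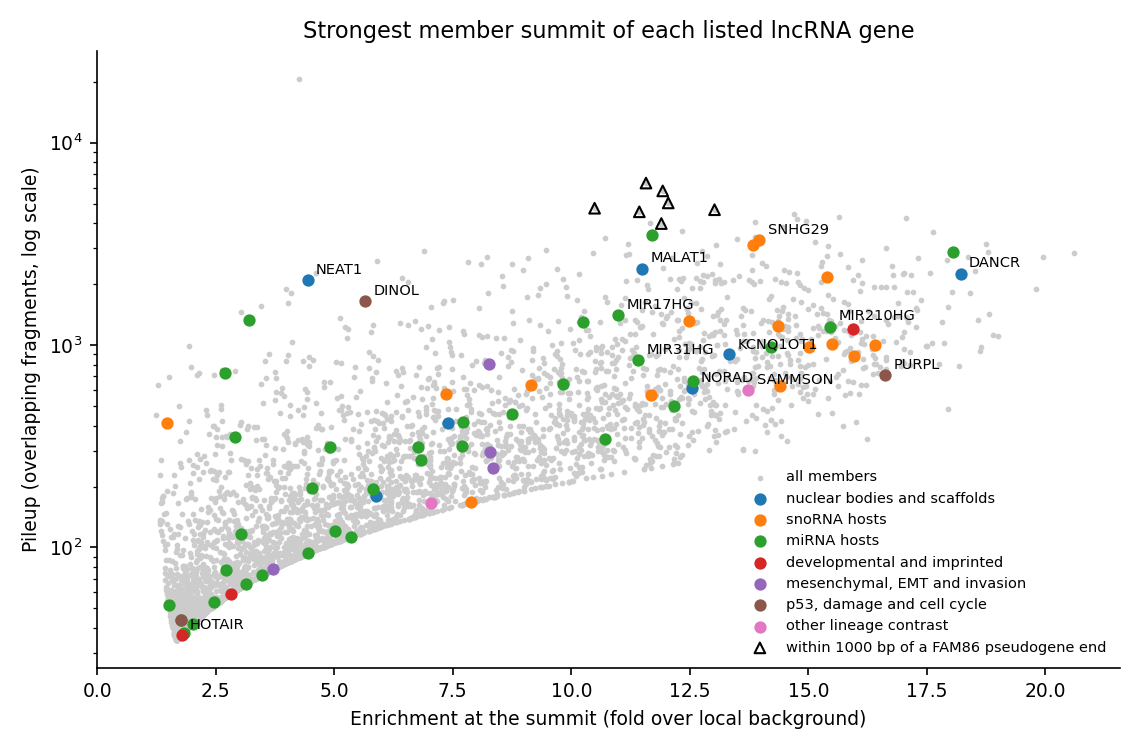
Pileup (y axis, overlapping fragments, log scale) against enrichment (x axis, fold over local background) for every member (grey) and for the highest member of each listed gene (coloured by list), with the 7 highest summits at FAM86 pseudogenes as triangles. NEAT1 and DINOL lie high on the pileup axis at enrichments of 4.44 and 5.64, apart from DANCR and PURPL on the right.

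The 10 members with the highest enrichment included no gene of the lists above. PCSK6-AS1 (chr15:101333955-101334664, inside the gene body of PCSK6) had 20.6 with a pileup of 2848. LINC00663 followed with 19.9 and 2720, LOC105378179 with 19.8 and 1893, LOC105369892 with 18.99 and 1112, and a summit shared by LINC03014 and LINC03015 with 18.9 and 1122. SLC28A2-AS1, LOC105377308 and LINC01569 had 18.8 each, with pileups of 1418, 2865 and 3148. FAM230F had 18.7 and 980, and LINC01504 18.6 and 934. Of these 10 summits, 9 lay 100 to 184 bp from the gene end, and that of FAM230F lay 480 bp away.

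Ranked by pileup, the top of the list was a different set of genes, and pseudogenes stood beside most of them. LOC101928626 on chromosome 1 had a pileup of 20659 but an enrichment of 4.25, over a background of 4857 fragments, and its summit lay 140 bp from an end of MTND2P28, a nuclear copy of a mitochondrial gene. LOC102723696 had 6310, LINC02021 5772, FAM85B 5035, LINC02018 4740, LOC112268090 4660 and LOC105374358 4551, and each of these lay 359 to 476 bp from an end of a FAM86 pseudogene. The last 3 were LOC107985416, which shares its summit with HM13-AS1, with 4450, SLC39A13-AS1 with 4284 and LINC01003 with 4231.

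FAM86 pseudogenes are copies of a family of protein methyltransferase genes, scattered over several chromosomes. Of the 12 on autosomes, 7 had a member within 1000 bp. Over all 15727 pseudogenes, 12% had any summit within 1000 bp of an end, a wider measure than a member. The highest member at each of the 7 had enrichments of 10.5 to 13.0, a pileup of 3982 to 6310 and a background of 334 to 544 fragments. The values at such copies are uncertain where the copies are alike, because reads that match several places equally well can be placed at any of them. The identity of the copies was not analysed here, and the part of read placement in these values was not tested. Among the 18 members with a pileup of 3500 or more, 10 lay within 1000 bp of a pseudogene end, compared with 152 of all 4309 members (3.53%). Those 152 had a median pileup of 267.5 and a median enrichment of 5.63, against 147 and 4.64 for the other 4157.

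The 3 genes with the most members were not the most open ones. LINC03117, LOC101929998 and LOC105373953 had 5 members each, with median enrichments of 2.32, 4.87 and 1.95. All 5 summits of LOC101929998 stood in a single interval of 5348 bp. CSNK1G2-AS1 and DENND2B-AS1, taken from the 26 genes tied at 4 members, had medians of 1.71 and 5.42. The lowest enrichments of all were 1.23 at LINC02449 and 1.29 at LINC02021, which are side summits in intervals that also hold a FAM86 summit, and 1.32, 1.33 and 1.33 at 3 summits of PTOV1-AS2 in an interval of 1105 bp.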

How the data were processed

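ATAC-seq libraries of HT1080 cells at 3 collagen concentrations, 4 each, were summarised by the authors in 1 deposited peak list. Per the submitters' processing notes, fastp 0.20.0, Bowtie2 2.4.3, SAMtools, deepTools 3.5.0 and MACS2 2.2.7.1 were used with build hg38; the settings and the handling of duplicates are not given in the sources used here. The deposited enrichment is a fold ratio, the deposited p-value and q-value are on the −log10 scale (lowest −log10 q 1.30), and the deposited score is 10 times −log10 q. Other deposited columns give positions, counted here from 1.

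Pileup and background were solved from each line, taking enrichment to be (pileup + 1)/(background + 1) and p the chance, under a Poisson law, of a higher pileup. The pileup came out whole, within 0.05, in 99.96% of lines, and the recovery was tested on simulated data. RefSeq genes, promoters and miRNAs (GRCh38.p14) gave ends, biotypes, strand and sequence; starts on chromosome 8 were not analysed here. For the 4309 members, medians have order-statistic intervals and shares exact binomial (Clopper-Pearson) intervals, both at 95%. No test was made: the planned comparison of collagen concentrations needs counts per library. Named genes were those of the fixed lists, the 10 highest by enrichment and by pileup, the 5 genes with most members, and the 5 summits next to each limit. The 5 genes with most members include some of the 26 tied at 4. Other windows, distances, thresholds and summit choices were tried. Members and lists were chosen with earlier results of these data known. Analyses used Python 3.11.15, numpy 2.4.6, pandas 2.3.3, scipy 1.17.1 and matplotlib 3.10.9.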

Additional observations from a re-analysis of the deposited data

How the results depend on the processing

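With a window of 500 bp there were 2687 members, with median enrichment 5.50, pileup 184, distance 167 bp and start share 79.4%. With 2500 bp there were 8215 members at 6079 genes, with 4.08, 123, 931 bp and 60.1%. A −log10 q of at least 10 gave 6.40, 232, 304 bp and 73.7%. Keeping the strongest summit of each interval gave 5.39, 168 and 334 bp. Without members at internal coding starts, an alternative chosen after seeing the data, the pileup was 140 and the start share 69.0%. With a member within 250 bp of the start, the motif shares were 24.0% for AP-1, 10.8% for ETS, 42.1% for SP/KLF, 35.6% for NFY, 4.27% for NRF1, 8.35% for TATA and 2.88% for CRE. The other 53 values stayed within the limits set for them, a fixed ratio for counts and the main interval for medians and shares. That ratio was wide: genes with a member fell from 3632 to 2474 with the 500 bp window and stayed within it. A further 3 of the 4 added alternatives (lncRNA biotype alone, antisense biotype added, pseudogene ends left out) were also chosen after seeing the data. Listed genes with a member numbered 68, and 53 to 93 over these settings. No paired analysis was possible because the list has no column per library; the collagen comparison, its replicate block, the fits without single replicates and the DESeq2 alternative were therefore not run. Pooled depth limits all values: a pileup of 35 was the lowest among members.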

Other observations

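The members were spread unevenly over the chromosomes. Their share of a chromosome's summits ran from 2.89% on chromosome 18 to 4.94% on chromosome 21, and the share of lncRNA genes with a member from 14.2% on chromosome 4 to 30.7% on chromosome 22. Median enrichment ran from 3.77 on chromosome 17 to 5.44 on chromosome 3.

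Gene length went with small differences. Of 3647 lncRNA genes of 2000 to 5000 bp, 22.9% had a member, and of 2641 genes of 30000 to 100000 bp, 17.4% had one. Among the 27 genes with a SCARNA symbol, which make small RNAs of Cajal bodies, 3 had a member (11.1%, exact binomial interval 2.35 to 29.2).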
